A study of Homo sapiens with 7 samples.

Results

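The genes described here are the SR proteins, the heterogeneous nuclear ribonucleoproteins (hnRNPs), the Sm and other small nuclear ribonucleoprotein (snRNP) proteins, the SF3 and U2AF factors and the PRPF factors, chosen by their gene symbols alone. They are 66 of the 11408 genes that had a symbol and expression values: 10 SR proteins, 20 hnRNPs, 8 Sm core genes, 4 U1 and U2 snRNP proteins, 9 SF3 subunits, 2 U2AF genes and 13 PRPF genes. HNRNPD was left out by the rule, and HNRNPCP1 as a pseudogene by its symbol. U2AF1 is not analysed here. Poly(A) RNA was sequenced from the human line MOLM13, established from an acute myeloid leukemia of monocytic kind, in 7 libraries taken 6 days after guide RNAs were introduced. All 3 control libraries carried the non-targeting guide sgRosa, and 4 carried a guide against ZFP36L2, 2 libraries for each of 2 guides, called guide 3 and guide 5 as in the deposited columns. The Cas9 source, the selection and whether cells were cloned are not given in the sources used here. No label states whether the libraries of a group came from separate cultures, and p-values here reflect only the spread of these libraries, which may be technical.

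Splicing removes introns from the primary transcript in steps carried out by the spliceosome. The U1 snRNP binds the 5′ splice site, U2AF binds the polypyrimidine tract and the end of the intron, and the U2 snRNP with its SF3A and SF3B parts binds the branch point, after which the U4/U6.U5 tri-snRNP joins and the catalytic centre forms. SR proteins bind exonic sequences and mostly favor inclusion of the exon, while many hnRNPs oppose them. SF3B1, SRSF2 and U2AF1 are recurrently mutated in myeloid disease. The labels name the study's question as the effect of ZFP36L2 loss on gene expression in acute myeloid leukemia, where ZFP36L2 is known to attach to AU-rich stretches of mRNA 3′ ends and to speed their decay.

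The targeted gene was the first to be examined. ZFP36L2 had 80.2, 79.3 and 73.9 FPKM in the sgRosa libraries, 269 and 322 with guide 3 and 174 and 164 with guide 5. Its mRNA was higher in all 4 libraries labelled with a ZFP36L2 guide (log2 change 1.51 ± 0.16, limma adjusted p = 8.18e-05), and since a guide cuts DNA without necessarily lowering the mRNA, this level does not check the knockout itself. The libraries held 16907955 to 38807816 reads in the listed genes. All 8 markers of the cell line were listed, with summed levels of 42.1 to 61.1 FPKM in the sgRosa libraries and 62.0 to 76.6 with the guides. They did not move together: the mean FPKM of CSF3R went from 11.8 to 26.5 and of SPI1 from 6.999 to 15.99, while MPO went from 7.95 to 4.58, FLT3 from 5.44 to 3.17 and MEIS1 from 0.4195 to 0.2097, in each case without overlap of the groups. Of the markers of other cells, 0 of 4 B cell and 0 of 4 erythroid genes were listed, as against 1 of 4 T cell genes (CD3D, 3.597 to 4.88 FPKM with sgRosa and 1.504 to 2.105 with the guides) and 1 of 5 epithelial or fibroblast genes (KRT18, at most 0.904 FPKM). The 6 monocyte differentiation markers summed to 626 to 1151 FPKM with sgRosa and 1738 to 3647 with the guides, most of it LYZ, and each of the 6 was higher in all guide libraries. The mean FPKM of CD14 went from 0.7204 to 63.5, of FCN1 from 0.08503 to 12.6 and of S100A8 from 6.69 to 124.8. The part of this shift in the results that follow was not tested. Of the controls, sgRosa replicate 2 stood apart in FPKM. It was the highest of the 3 for 49 of the 62 members that could be tested, and the highest of all 7 libraries for 46. The deposited FPKM do not bring the libraries to the same total in listed genes. In sgRosa replicate 2, with 25164359 such reads, each read counted as 0.0468 per 1000000. In sgRosa replicate 3, with 22631858, it counted as 0.0409, and in replicate 1, with 16907955, as 0.0540. Per 1000000 reads in listed genes the members summed to 22861, 23716 and 21565 in sgRosa replicates 1 to 3. The part of this scale in the 49 was not tested. The counts for both guides and for each guide are also given without sgRosa replicate 2.

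Of the 62 splicing factor and hnRNP genes that could be tested, 28 fell (45.2%) in the test of both ZFP36L2 guides against sgRosa, led by SRSF1, HNRNPA3, SNRPE, HNRNPDL and HNRNPA1. None rose (0 by limma) and 34 were not called, while among all 6783 tested genes 19.7% fell and 22.5% rose. Of the fallen members 27 had all 4 guide libraries below all 3 sgRosa libraries, the exception being SNRPE. Over all tested members, 37 of 62 had the guide libraries all lower and 0 all higher. Among all 6783 tested genes 24% had the guide libraries all lower, and 1422 genes had them all higher. Without sgRosa replicate 2, 25 members fell and 3 rose, beside 19.5% of all tested genes that fell and 27.1% that rose. With every library corrected for GC content and length, 34 members fell and 1 rose, beside 26.3% of all tested genes that fell and 17.8% that rose. The median log2 change of the tested members was -0.45, against -0.00 for all tested genes. A gene was tested if its FPKM, the reads scaled by gene length and library size, was at least 1 in at least 2 libraries, and was called at an adjusted p under 0.05 by limma on log2(FPKM + 0.5). HNRNPA1L2, PRPF18, PRPF40B and SNRPN did not reach that level. In bulk RNA, fewer cells that express a gene and less of its RNA per cell cannot be told apart. All levels are relative to other RNA of the library, and the deposited FPKM use a library size other than its reads in listed genes.

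Summed over all members, the RPM (reads for each 1000000 reads of the library in listed genes) were 22861, 23716 and 21565 in the sgRosa libraries, 15461 and 16858 with guide 3, and 17265 and 17698 with guide 5. Each of the 4 guide libraries was thus below each sgRosa library. The hnRNPs made up the largest share of these reads, with 11472, 12040 and 10438 RPM with sgRosa and 7085 to 8789 with the guides. The SR proteins had 2775 to 3145 RPM with sgRosa and 1958 to 2126 with the guides, again without overlap. The Sm core genes overlapped, at 1022 to 1492 and 949 to 1221 RPM.

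**Figure D1:**
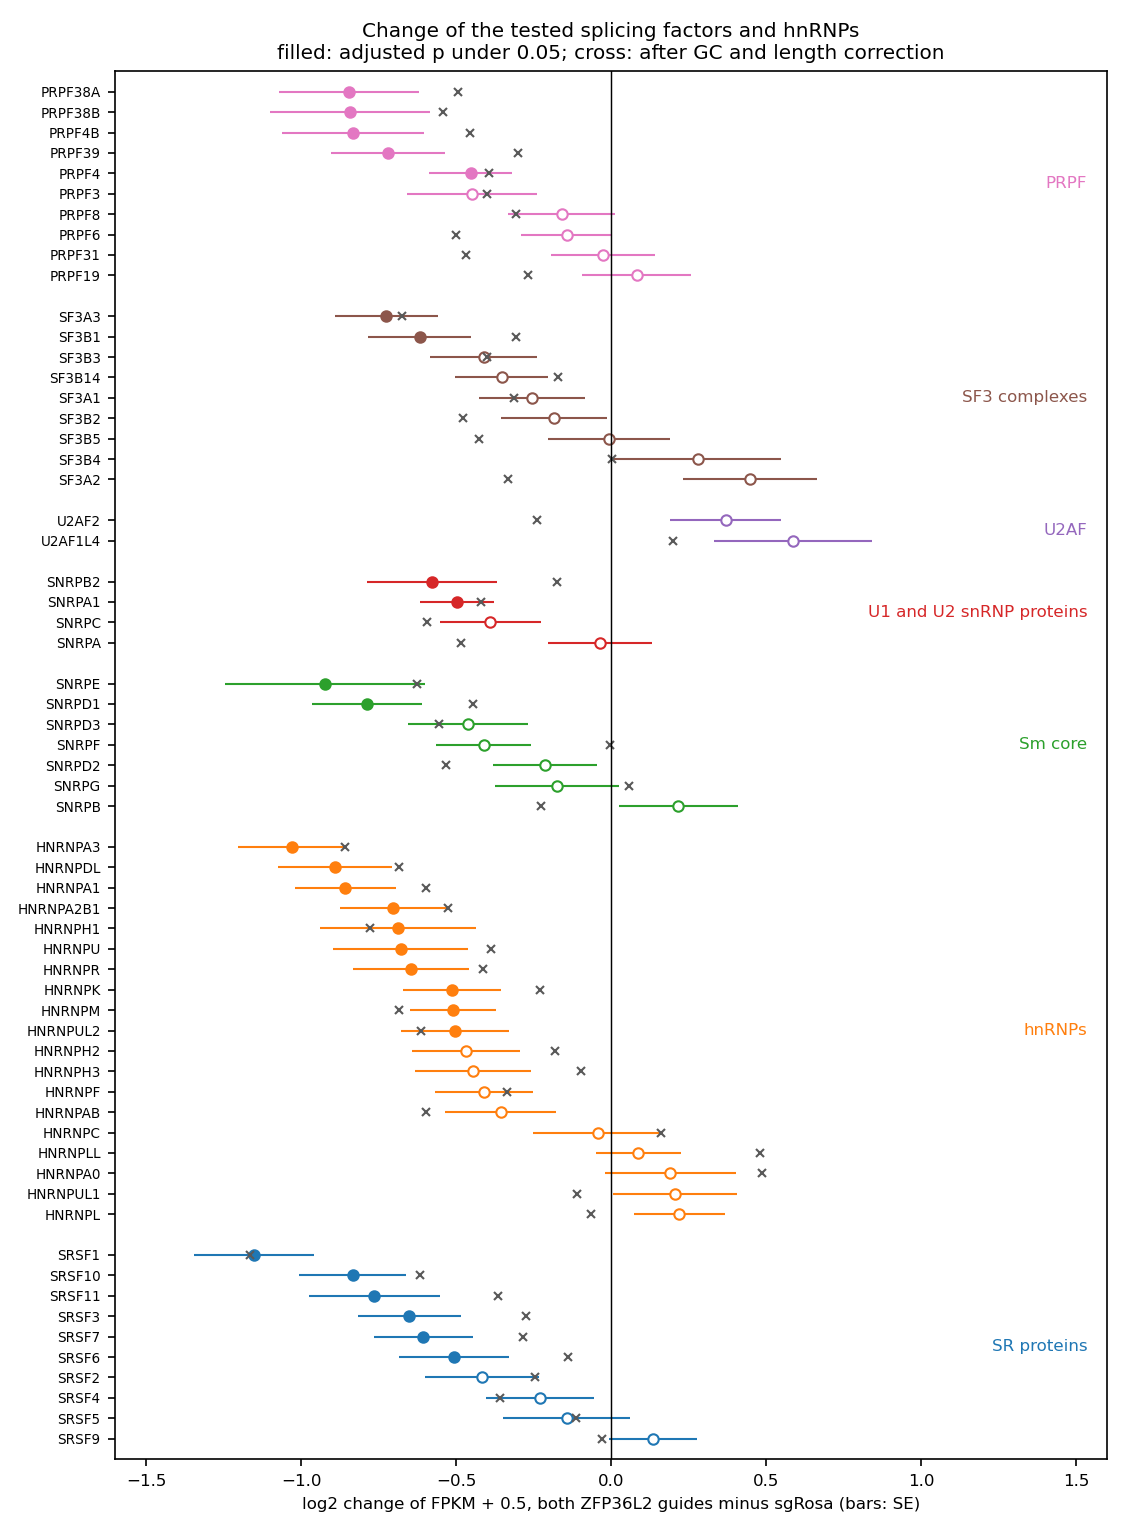
The log2 change of FPKM + 0.5 (both ZFP36L2 guides minus sgRosa, horizontal axis) is shown for 61 of the 62 tested members, grouped by role, with bars for the standard error. Filled points passed an adjusted p of 0.05, all 27 of them to the left of 0, and crosses show the same change after each library was corrected for GC content and length.

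The SR proteins included the largest fall of all members. SRSF1, which binds exonic enhancers and recruits U1 and U2AF, lies at chr17:58003360-58007346, minus strand (GRCh38, as are all positions below) and had 75.1, 51.4 and 49.3 FPKM in the sgRosa libraries, 27.6 and 24.9 with guide 3 and 22.2 and 28.2 with guide 5. The guide libraries lay at about the same level and all below the lowest sgRosa library, and the change was a fall of 1.15 ± 0.19 on the log2 scale (adjusted p = 0.00152). The mean FPKM was 56.1% lower with the guides. SRSF10, an SR protein that represses splicing when it loses its phosphates, had 16.7, 19.7 and 13.2 FPKM in the sgRosa libraries, 8.69 and 7.64 with guide 3 and 9.02 and 10.6 with guide 5. Again the groups did not overlap, and SRSF10 fell by 0.83 ± 0.17 (adjusted p = 0.00465). SRSF3, the smallest SR protein, which also takes part in mRNA export, had 33.5 and 33.5 FPKM with guide 3 and 34.7 and 35.3 with guide 5, against 50.7, 65.2 and 47.9 in the sgRosa libraries. The 4 guide libraries of SRSF3 were nearly equal, sgRosa replicate 2 was the highest, and the fall was 0.65 ± 0.17 (adjusted p = 0.0116). SRSF11, SRSF7 and SRSF6 fell as well, with log2 changes of -0.76, -0.61 and -0.51.

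The other 4 SR proteins were not called. SRSF2 (chr17:76734115-76737374, minus strand), the SR protein mutated in myeloid disease, had 119, 147 and 115 FPKM in the sgRosa libraries, 86.4 and 114 with guide 3 and 98.2 and 82.3 with guide 5. All guide libraries of SRSF2 lay below the sgRosa libraries, the nearest pair less than 1 FPKM apart, and the log2 change of -0.42 ± 0.18 did not pass the test (adjusted p = 0.0906). SRSF4 (-0.23) also did not pass. SRSF5 had 4.402, 7.87 and 4.25 FPKM in the sgRosa libraries, 4.65 and 4.54 with guide 3 and 4.74 and 5.08 with guide 5, with sgRosa replicate 2 above all guide libraries and the other sgRosa libraries below them. Its log2 change was -0.14 ± 0.20 with that library and 0.12 without it. SRSF9, a small SR protein close to SRSF1 in sequence, had 14.9, 13.6 and 15.4 FPKM in the sgRosa libraries, 16.6 and 17.8 with guide 3 and 15.4 and 14.8 with guide 5. The groups overlapped (log2 change 0.14 ± 0.14, adjusted p = 0.451), and the sign turned under scaling to a common FPKM sum (-0.05) and with the GC correction described below (-0.03). By count, 6 of 10 SR proteins fell (60%, beside 19.7% of all tested genes) and 0 rose, with a median log2 change of -0.56.

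Among the hnRNPs, 10 of the 19 tested fell (52.6%, beside 19.7% of all tested genes) and 0 rose, and the median log2 change was -0.50. The A/B type, which shares paired RNA recognition motifs and a glycine-rich tail, held the largest falls. Not all of that type fell: HNRNPA0 (log2 change 0.19) and HNRNPAB (-0.36) were not called. HNRNPA3 (chr2:177212563-177223958, plus strand) had 24.1, 25.6 and 17.3 FPKM in the sgRosa libraries, 10.7 and 9.33 with guide 3 and 10.6 and 11.7 with guide 5. All guide libraries were far below the sgRosa libraries, and HNRNPA3 fell by 1.03 ± 0.17 (adjusted p = 0.00163). HNRNPDL, related in sequence to the hnRNP D protein, had 23.5 and 25.1 FPKM with guide 3 and 25.2 and 27.5 with guide 5, against 47.1, 59.7 and 37.6 in the sgRosa libraries. Every guide library was below the lowest sgRosa library, and the fall was 0.89 ± 0.18 (adjusted p = 0.00457). HNRNPA1, a splicing repressor that competes with SRSF1 for splice site choice, lies at chr12:54280193-54287088, plus strand and had 38.6, 38.6 and 29.8 FPKM in the sgRosa libraries, 21.5 and 20.02 with guide 3 and 19.3 and 16.8 with guide 5. It fell by 0.86 ± 0.16 (adjusted p = 0.00296), with the guide libraries again all lower. Pseudogene copies of HNRNPA1 exist in the genome and could take or give reads, depending on how the authors' counting treated reads with several matches.

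HNRNPA2B1, a close relative of HNRNPA1 that also binds m6A-marked RNA, lies at chr7:26173057-26201529, minus strand. It had 215, 243 and 183 FPKM in the sgRosa libraries, 125 and 134 with guide 3 and 129 and 133 with guide 5. The 4 guide libraries spread over less than the sgRosa libraries did, without overlap, and HNRNPA2B1 fell by 0.70 ± 0.17 (adjusted p = 0.0102), a mean 39.04% lower. The other fallen hnRNPs were HNRNPH1 (-0.69), which binds G runs, HNRNPU (-0.68), a nuclear scaffold protein, HNRNPR (-0.65), HNRNPK (-0.51), a KH-domain protein that binds C-rich RNA, HNRNPM (-0.51) and HNRNPUL2 (-0.50). Without sgRosa replicate 2 HNRNPH1 was at -0.34 (adjusted p = 0.0556) and HNRNPUL2 at -0.34 (adjusted p = 0.0641), no longer called, and HNRNPU still fell, by 0.42. HNRNPH2 (-0.47), HNRNPH3 (-0.44), HNRNPF (-0.41) and HNRNPAB (-0.36) had negative changes that did not pass. HNRNPC (-0.04), HNRNPLL (0.09) and HNRNPA0 (0.19) were near 0 or above. HNRNPC turned to 0.16 with the GC correction described below and to 0.22 without sgRosa replicate 2, and HNRNPA0 to -0.02 without that library.

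HNRNPL, which binds CA repeats, and HNRNPUL1, which has a part in mRNA export, had the highest changes among the hnRNPs. HNRNPL had 11.99, 11.7 and 12.2 FPKM in the sgRosa libraries, 12.2 and 14.9 with guide 3 and 15.3 and 13.9 with guide 5. Guide 3 replicate 1 lay among the sgRosa libraries and the others lay above them (log2 change 0.22 ± 0.15, adjusted p = 0.239). HNRNPUL1 had 12.6, 22.5 and 16.3 FPKM in the sgRosa libraries, 16.9 and 20.3 with guide 3 and 20.4 and 19.9 with guide 5. The sgRosa libraries spanned the whole range of the guide libraries, and the log2 change was 0.21 ± 0.20 (adjusted p = 0.417). Both changed sign with the GC correction, to -0.07 and -0.11, without passing the test.

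The Sm core genes encode the proteins of the ring that surrounds the RNA of most spliceosomal snRNPs. In all, 2 of the 7 tested fell (28.6%, beside 19.7% of all tested genes) and the median log2 change was -0.41. SNRPD1 (chr18:21612267-21633524, plus strand) had 9.19, 11.9 and 7.77 FPKM in the sgRosa libraries, 5.16 and 4.76 with guide 3 and 4.86 and 6.46 with guide 5. Its guide libraries were all lower, and it fell by 0.79 ± 0.18 (adjusted p = 0.00695). SNRPE had 17.5, 4.89 and 8.73 FPKM in the sgRosa libraries, 5.58 and 5.63 with guide 3 and 3.68 and 3.802 with guide 5. The sgRosa libraries of SNRPE scattered widely, sgRosa replicate 2 lay among the guide libraries, and the fall of 0.92 ± 0.32 passed by a small margin (adjusted p = 0.0427). Without sgRosa replicate 1 it was at -0.47 (adjusted p = 0.130), and it was not called without sgRosa replicate 3 either. SNRPD3 (-0.46), SNRPF (-0.41) and SNRPD2 (-0.21) did not pass.

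SNRPG and SNRPB stood at the upper end of the Sm genes. SNRPG had 2.48, 1.13 and 2.197 FPKM in the sgRosa libraries, 1.69 and 1.64 with guide 3 and 1.38 and 1.65 with guide 5. The guide libraries lay between sgRosa replicate 2 and the other sgRosa libraries (log2 change -0.17 ± 0.20, adjusted p = 0.489). Without that library SNRPG fell by 0.44 (adjusted p = 0.0107), and with the GC correction its change was 0.06. SNRPB, whose product SmB is near-identical to the SNRPN product, had 43.9, 32.1 and 47.1 FPKM in the sgRosa libraries, 48.3 and 57.9 with guide 3 and 47.6 and 37.1 with guide 5. The groups overlapped (log2 change 0.22 ± 0.19, adjusted p = 0.368), and the sign turned to -0.22 with the GC correction. How reads were split between SNRPB and SNRPN is not given in the sources used here.

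Of the 4 proteins particular to the U1 or U2 snRNP, 2 fell (50%, beside 19.7% of all tested genes). They were the U2 proteins, and neither U1 protein was called. SNRPA1, the U2 A′ protein, had 1.79, 1.86 and 1.81 FPKM in the sgRosa libraries, 1.08 and 1.33 with guide 3 and 1.03 and 1.15 with guide 5. The sgRosa libraries were within 0.1 FPKM of each other and above all guide libraries, and SNRPA1 fell by 0.50 ± 0.12 (adjusted p = 0.00918). SNRPB2, the U2 B″ protein that pairs with it, had 19.5, 28.98 and 16.1 FPKM in the sgRosa libraries, 14.99 and 12.2 with guide 3 and 12.8 and 15.5 with guide 5. It fell by 0.58 ± 0.21 (adjusted p = 0.0480), with the guide libraries lower and the nearest pair less than 1 FPKM apart. SNRPC, which helps U1 bind the 5′ splice site, had 8.904, 12.9 and 9.76 FPKM in the sgRosa libraries, 8.35 and 8.897 with guide 3 and 7.29 and 6.85 with guide 5. Those libraries did not overlap, yet the log2 change of -0.39 ± 0.16 did not pass (adjusted p = 0.0745). SNRPA, the U1 A protein, had 10.1, 13.4 and 12.96 FPKM in the sgRosa libraries, 10.5 and 13.7 with guide 3 and 12.2 and 10.9 with guide 5, which overlapped fully (log2 change -0.04 ± 0.17). The calls of these genes turned with the processing. SNRPB2 was no longer called without sgRosa replicate 2 (-0.35, adjusted p = 0.0886) or with the GC correction (-0.18, 0.236). With that correction SNRPC (-0.59, 0.00944) and SNRPA (-0.48, 0.0125) fell, as did SNRPA1 (-0.42, 0.00744). That made 3 of 4 fallen, both U1 proteins among them, beside 26.3% of all tested genes.

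The SF3A and SF3B complexes are the parts of the U2 snRNP that hold the branch point. In all, 2 of 9 subunits fell (22.2%, near the 19.7% of all tested genes) and 0 rose (22.5% of all tested genes). The median log2 change was -0.26. SF3A3 (chr1:37956975-37990921, minus strand) had 7.12, 9.97 and 6.76 FPKM in the sgRosa libraries, 4.33 and 4.03 with guide 3 and 4.703 and 5.18 with guide 5. Its guide libraries were all lower, and SF3A3 fell by 0.73 ± 0.17 (adjusted p = 0.00716). SF3B1 (chr2:197389784-197435091, minus strand), the large subunit that closes around the branch point adenosine, had 15.3, 19.2 and 13.2 FPKM in the sgRosa libraries, 9.92 and 9.33 with guide 3 and 9.95 and 11.2 with guide 5. Here too the groups did not overlap, and SF3B1 fell by 0.62 ± 0.17 (adjusted p = 0.0146). SF3B3 (-0.41), SF3B14 (-0.35; an older symbol of SF3B6), SF3A1 (-0.26), SF3B2 (-0.18) and SF3B5 (-0.01) were not called.

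SF3A2 and SF3B4 had the highest changes of the SF3 subunits. SF3A2 had 6.96, 11.6 and 11.3 FPKM in the sgRosa libraries, 12.1 and 17.5 with guide 3 and 13.99 and 11.05 with guide 5. Guide 5 replicate 2 lay below sgRosa replicates 2 and 3, and the log2 change was 0.45 ± 0.22 (adjusted p = 0.115). SF3B4 had 11.8, 29.6 and 19.05 FPKM in the sgRosa libraries, 21.8 and 28.4 with guide 3 and 22.6 and 19.8 with guide 5, where the sgRosa libraries spanned the guide libraries (log2 change 0.28 ± 0.27, adjusted p = 0.412). With the GC correction the change of SF3A2 turned to -0.33 and that of SF3B4 came to 0.00, and without sgRosa replicate 1 that of SF3B4 was -0.05.

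The U2AF genes had the only positive median of the role groups (0.48, 2 genes, 0 called). U2AF2, the large subunit that binds the polypyrimidine tract, had 13.8, 13.7 and 17.9 FPKM in the sgRosa libraries, 18.6 and 25.1 with guide 3 and 19.8 and 15.8 with guide 5. Guide 5 replicate 2 lay below sgRosa replicate 3, and the log2 change was 0.37 ± 0.18 (adjusted p = 0.117). U2AF1L4, a paralog of the small subunit, had 0.869, 2.54 and 1.02 FPKM in the sgRosa libraries, 1.698 and 2.499 with guide 3 and 2.51 and 2.49 with guide 5. It is a low gene, with 48 to 285 reads per library, its sgRosa libraries spanned the guide libraries, and the log2 change was 0.59 ± 0.25 (adjusted p = 0.0845). After the GC correction these values were -0.24 and 0.20, neither of which passed.

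The PRPF genes, named after yeast pre-mRNA processing mutants, encode factors of several steps, many of them in the tri-snRNP. Of the 11 tested, 6 fell (54.5%, beside 19.7% of all tested genes) and 0 rose, with a median log2 change of -0.45. PRPF38A, which acts in spliceosome activation, had 9.32, 17.5 and 9.02 FPKM in the sgRosa libraries, 6.82 and 5.91 with guide 3 and 5.397 and 6.44 with guide 5. The guide libraries were all lower and sgRosa replicate 2 was the highest, and the fall was 0.84 ± 0.23 (adjusted p = 0.0145). PRPF38B, its paralog, had 9.79 and 8.99 FPKM with guide 3 and 9.25 and 9.77 with guide 5, against 14.2, 29.2 and 12.5 in the sgRosa libraries. It fell by 0.84 ± 0.26 (adjusted p = 0.0252), with all guide libraries lower and sgRosa replicate 2 again the highest. PRPF4B, a kinase (-0.83), PRPF39 (-0.72), associated with U1, and PRPF4 (-0.45) of the tri-snRNP also fell.

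The other 5 tested PRPF genes were not called. PRPF8, the scaffold of the catalytic centre, had a log2 change of -0.16, and PRPF3 and PRPF6, both of the tri-snRNP, had -0.45 and -0.14. PRPF31, a tri-snRNP protein, had 5.29, 7.52 and 6.45 FPKM in the sgRosa libraries, 6.399 and 7.72 with guide 3 and 6.17 and 4.95 with guide 5, with full overlap (log2 change -0.03 ± 0.17). PRPF19, the ubiquitin ligase of the complex of the same name, had 17.8, 12.4 and 18.3 FPKM in the sgRosa libraries, 14.6 and 16.8 with guide 3 and 19.1 and 17.3 with guide 5. Those groups overlapped too (log2 change 0.08 ± 0.18), and the sign turned to -0.27 with the GC correction, -0.11 with a common sum of FPKM and -0.05 with quantile normalization.

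**Figure D2:**
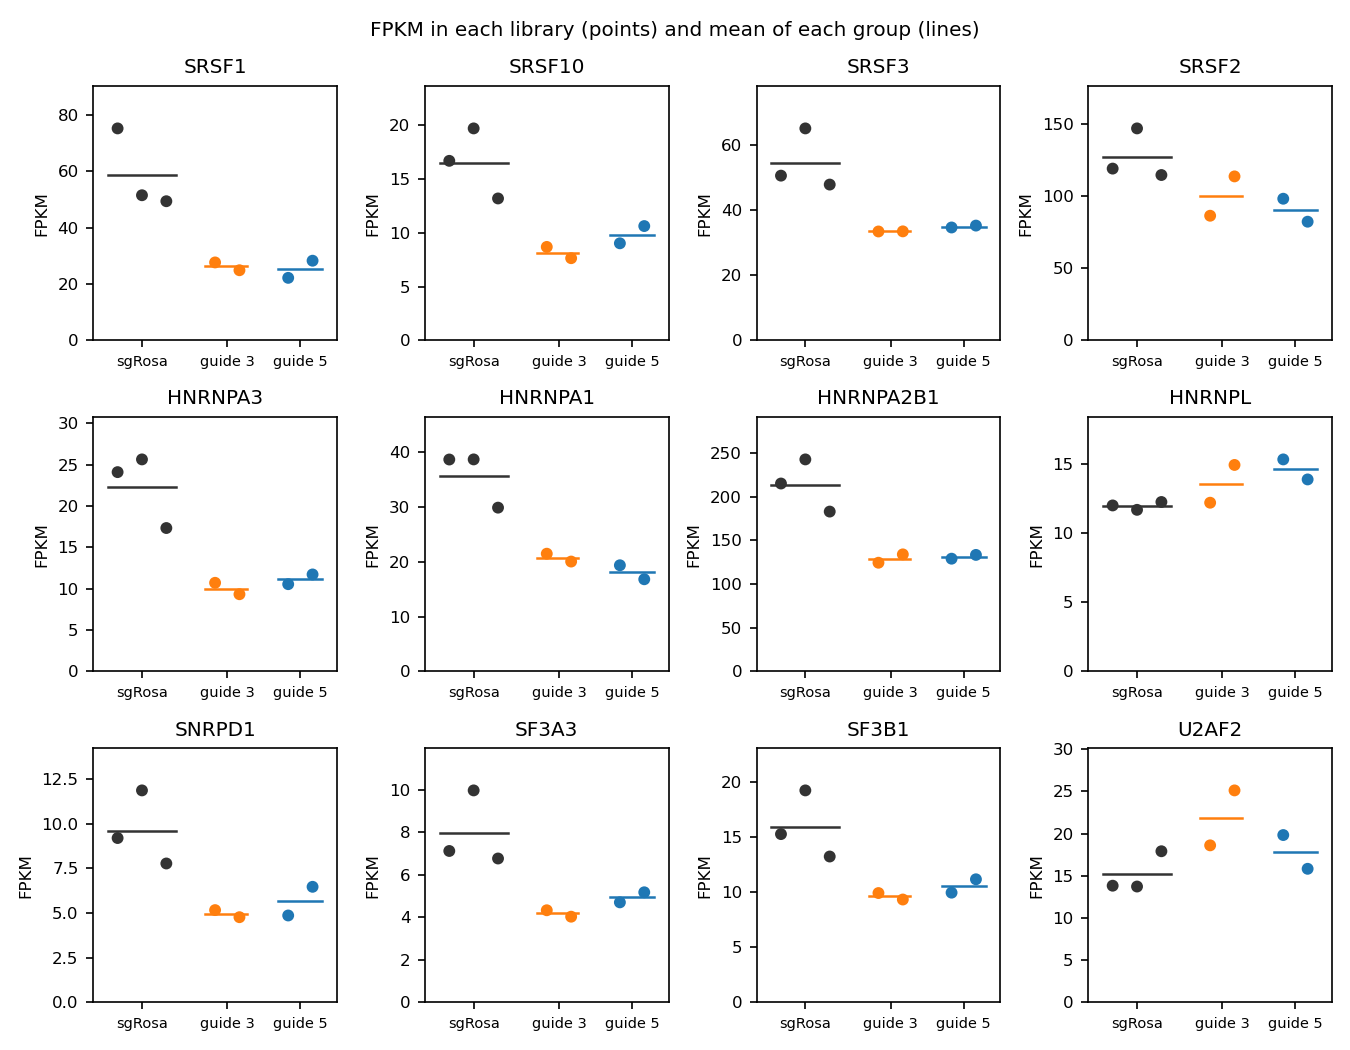
FPKM (vertical axes, each starting at 0) are plotted for 12 members in each library, with sgRosa in grey, guide 3 in orange, guide 5 in blue, and a line at each group's mean. The guide libraries lie below all sgRosa libraries for every member shown except HNRNPL and U2AF2.

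The fallen count rested on all guide libraries. With 1 library left out it was 16 (guide 3 replicate 1; 12.1% of all tested genes fell), 10 (guide 3 replicate 2; 8.31%), 9 (guide 5 replicate 1; 8.36%) or 18 (guide 5 replicate 2; 13.6%). All 28 changes stayed below 0 in each alternative analysis that tested the gene (17 for 25 of them and 16 for the other 3), and 8 members fell in every alternative that tested them, namely SRSF1, SRSF10, HNRNPA1, HNRNPA3, HNRNPDL, SNRPD1, SF3A3 and PRPF39. The run that joined the GC correction with leaving out sgRosa replicate 2 is not counted among these alternatives. On reads recovered from the deposited values, limma with voom weights called 31 members fallen and 0 risen, beside 21.2% of all tested genes fallen. At an unadjusted p under 0.05, 1 member had risen, and the share of all tested genes at that p is not given here.

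Each guide was then set against the same 3 sgRosa libraries, so the comparisons share their controls. With guide 3, 23 members fell and 0 rose by limma (background 17.2% fallen and 23.5% risen). With guide 5, 10 fell and 0 rose (background 7.42% and 12.4%). All 10 of the latter, namely PRPF38A, SRSF1, SRSF10, SRSF7, SNRPD1, SNRPA1, HNRNPA3, HNRNPDL, HNRNPA1 and HNRNPA2B1, also fell with guide 3. For SRSF1 the log2 changes were -1.12 with guide 3 and -1.19 with guide 5, for HNRNPA3 -1.10 and -0.96, and for SF3B1 -0.68 and -0.55. For each of the 2 guides 1 member had risen at an unadjusted p under 0.05, again without the share of all tested genes. By voom 0 had risen. Without guide 3 replicate 1, guide 3 replicate 2, guide 5 replicate 1 or guide 5 replicate 2, the fallen counts with guide 3 were 3, 0, 14 and 14, beside 4.85%, 1.77%, 12.6% and 12.6% of all tested genes. For guide 5 they were 3, 3, 0 and 1, beside 2.8%, 2.8%, 0.442% and 0.826%. Without sgRosa replicates 1, 2 and 3 the guide 5 counts were 3, 19 and 22, beside 2.62%, 12.3% and 14.7%, and without sgRosa replicate 2 the guide 3 count was 27, beside 19.3%.

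In the direct comparison of guide 5 with guide 3, 0 of 62 members passed by limma (smallest adjusted p = 0.376), while 0.737% of all tested genes did, and voom also called 0. At an unadjusted p under 0.05 were 2 members, SF3B5 and SNRPD2, both lower with guide 5. The share of all tested genes at that p is not given here, so the 2 are not read as a guide difference. SF3B5 had 192 and 242 FPKM with guide 3 and 163 and 116 with guide 5, against 175, 150.4 and 196 in the sgRosa libraries, and the difference of guide 5 minus guide 3 was -0.65 on the log2 scale. The differences ran from that value to 0.39 (HNRNPR), and their 95% intervals reached 0.348 to 0.9402 to either side. These intervals are for each gene alone, without adjustment over all tested genes. That of SF3B5, -1.22 to -0.07, left out 0, yet SF3B5 was not called (limma adjusted p = 0.384). Differences within those limits, and some beyond them, could thus go uncalled.

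The authors' deposited table gives an edgeR test of each guide against control. In it 26 of the 66 members were lower with guide 3 at a false discovery rate under 0.05 and 0 were higher (19.4% of all 11408 genes were lower), and 15 were lower with guide 5 and 0 higher (7.81% of all genes lower). For SRSF1 the authors' deposited table lists log2 fold changes of -1.16 (false discovery rate 0.00290) with guide 3 and -1.22 (0.00364) with guide 5. SRSF2 stands in the authors' deposited table at -0.34 (0.213) and -0.49 (0.121), short of that threshold with both guides.

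Levels of the members in the sgRosa libraries were compared per length of the principal transcript, since the deposited FPKM divide by the whole gene with its introns. HNRNPA2B1 had the highest level, 708 ± 66.3 RPM per kilobase of transcript (SD, n = 3), with a range of 656 to 783 that overlapped no other member's. HNRNPC (337 ± 69.8), SNRPB (336 ± 103), SNRPD2 (329 ± 84.6) and HNRNPU (299.6 ± 54.5) followed and did not differ from their neighbours beyond the spread of the libraries. Of the 12 highest members 9 were hnRNPs, the others being SNRPB, SNRPD2 and SNRPC. Among the SR proteins SRSF10 (162 ± 20.2), SRSF1 (157 ± 52.9), SRSF3 (144 ± 5.73) and SRSF2 (143 ± 4.06) were the highest on this scale, with overlapping ranges, and SRSF4 (56.01 ± 7.02) the lowest. SF3B1 stood at 109.6 ± 9.12 and SF3A3 at 72.6 ± 5.42. The lowest members were PRPF40B (0.552 ± 0.211), HNRNPA1L2 (2.598 ± 0.295), U2AF1L4 (4.63 ± 2.17), PRPF18 (7.24 ± 2.39) and SNRPN (11.9 ± 5.48). PRPF40B had 27 to 113 reads per library and HNRNPA1L2 48 to 91.

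**Figure D3:**
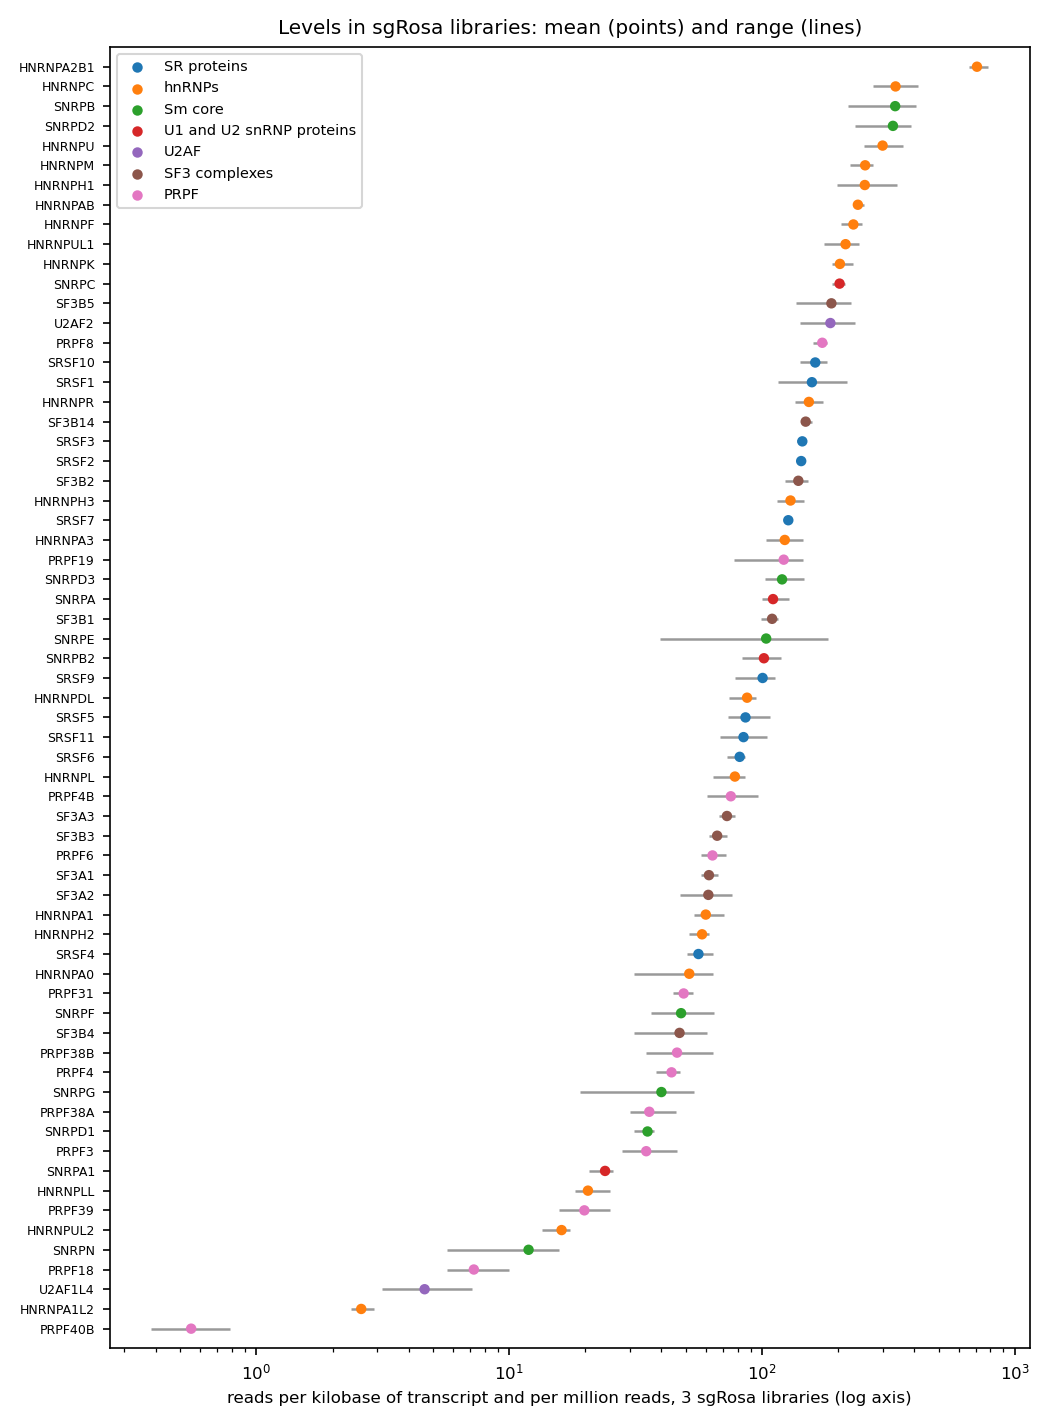
Of the 66 members 65 are shown, each with its level in the 3 sgRosa libraries, in RPM per kilobase of principal transcript on a log axis, as the mean (point, colored by role) and the range (line). HNRNPA2B1 stands apart at the top, and 4 of the 5 lowest members were below the level for testing.

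The falls went with the base composition of the transcripts. Fallen members had a median transcript GC content of 42.04%, tested members that did not fall 52.4%, and all tested genes 50.7%. Over the 62 tested members the log2 change and the GC content had a Pearson correlation of 0.65 and a Spearman correlation of 0.62, and over all 6783 tested genes the Pearson correlation was 0.57, where all points share the same 7 libraries. Among members with less than 42% GC, 14 of 19 fell (73.7%), against 49.7% of the 1447 tested genes in that range. From 42% to 50%, 11 of 19 fell (57.9%), against 28.2% of 1806 genes. At 50% or more, 3 of 24 fell (12.5%), namely HNRNPH1, HNRNPM and HNRNPUL2, against 3.14% of 3530 genes. The median log2 changes of members and of all genes were -0.65 and -0.44 in the lowest range, -0.50 and -0.26 in the middle range and -0.09 and 0.32 in the highest, so the members' medians were lower in each. These ranges were set after the data were seen.

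The sgRosa libraries differed along the same axis. Genes with less than 42% GC had a median log2 deviation from the control mean of -0.02, 0.26 and -0.25 in sgRosa replicates 1 to 3 and of -0.57 to -0.28 in the guide libraries. High values of the members in sgRosa replicate 2 thus stand beside high values of AT-rich genes there. The 3 members that rose without that library were SF3B4 (0.60, adjusted p = 0.0387), U2AF1L4 (0.95, adjusted p = 0.000971) and HNRNPUL1 (0.42, adjusted p = 0.0463). Of the 28 fallen members 24 were still called. The 4 lost were HNRNPH1, HNRNPUL2, SNRPB2 and SRSF6 (-0.35, adjusted p = 0.0551), and SNRPG was gained. SRSF1 then fell by 1.23 and HNRNPA3 by 0.92 on the log2 scale, and the falls of PRPF38A (-0.55), PRPF38B (-0.48), PRPF4B (-0.54) and SRSF11 (-0.50) were smaller than with all libraries. By role, 6 of 11 PRPF genes, 2 of 9 SF3 subunits, 5 of 10 SR proteins, 3 of 7 Sm genes, 1 of 4 U1 and U2 proteins, 0 of 2 U2AF genes and 8 of 19 hnRNPs fell without it. Among all tested genes 19.5% fell without it.

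Each library was also corrected for the smooth trend of its values over GC content and length. After that correction the median log2 change was -0.38 for members and -0.09 for all tested genes. The correlation of change and GC content over the members was then -0.15. Of the 34, 21 had also fallen without the correction, which is 61.8% of the 34 and 75% of the 28. The 7 lost were SRSF3, SRSF6, SRSF7, SNRPE, SNRPB2, HNRNPU and HNRNPK, for example SRSF3 at -0.28 (adjusted p = 0.0553). The 13 gained were PRPF6, PRPF8, PRPF31, SF3A1, SF3B2, SF3B3, SF3B5, SRSF4, SNRPA, SNRPC, SNRPD2, SNRPD3 and HNRNPAB. SRSF1 (-1.17, adjusted p = 0.00380), HNRNPA3 (-0.86, 0.00136), SF3A3 (-0.68, 0.000990) and SF3B1 (-0.31, 0.0143) were still called. The member that rose was HNRNPLL, a relative of HNRNPL, at 0.48 (adjusted p = 0.00653). By role, 9 of 11 PRPF genes, 6 of 9 SF3 subunits, 4 of 10 SR proteins, 3 of 7 Sm genes, 3 of 4 U1 and U2 proteins, 0 of 2 U2AF genes and 9 of 19 hnRNPs fell after correction. Among all tested genes 26.3% fell after it.

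**Figure D4:**
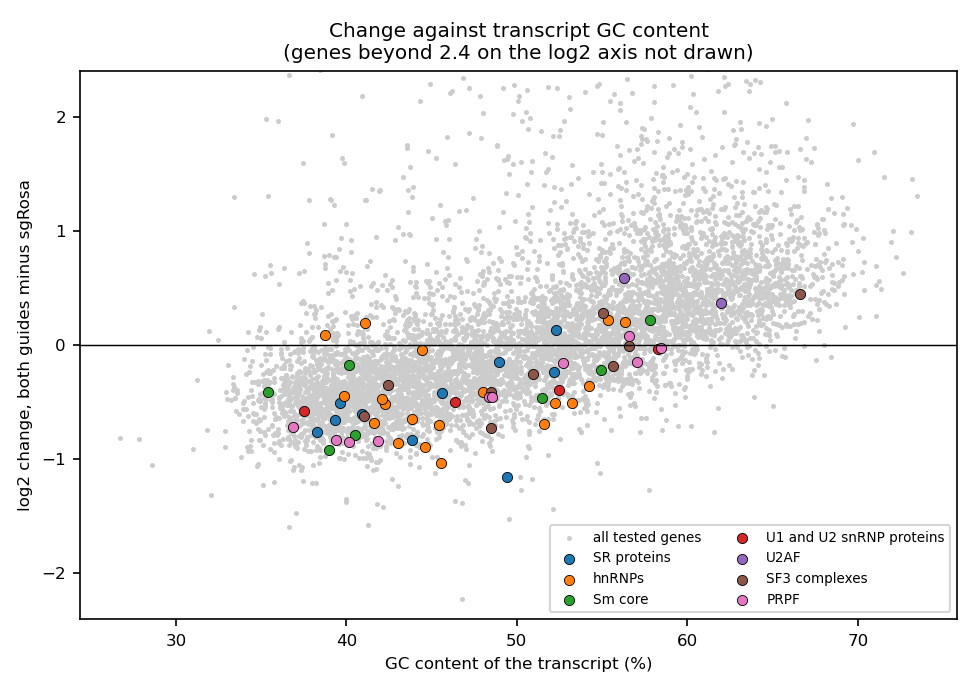
The log2 change (both guides minus sgRosa, vertical axis) is plotted against the GC content of the principal transcript in percent. Tested genes are in grey, those beyond the limits of the vertical axis not drawn, and 61 of the 62 tested members are colored by role. Members of low GC content lie lower, along the slope of all genes, and SRSF1, at -1.15, is the lowest member.

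The 3′ UTRs of the members were searched for TATTTAT, the heptamer core of the AU-rich elements that the ZFP36 family binds, in the sense direction. It was found in 8 of the 61 tested members with an annotated 3′ UTR (13.1%) and in 28.4% of 6394 tested genes, with median UTR lengths of 778 and 988.5 bases. Of these 8 members 6 fell and 0 rose, beside 27% of the 1813 tested genes with the motif that fell. Their median log2 change was -0.71, against -0.41 for the members without it, and among all tested genes the medians were -0.18 with it and 0.07 without it. The 8 members had a median transcript GC content of 39.9%, so the motif and the base composition go together, and their parts in the change were not tested. The sites of the 6 fallen members and of 2 that were not called (SNRPF and HNRNPLL) are given here as DNA, 1 site for each gene, with the heptamer in capitals and 10 bases on each side, from GENCODE 29 on GRCh38.
HNRNPA1 (chr12:54286489-54286515, plus strand): tttgccctttTATTTATcttcctttga
PRPF38B (chr1:108701220-108701246, plus strand): ttttttagcaTATTTATattgtggaaa
SNRPD1 (chr18:21630342-21630368, plus strand): tactacgaagTATTTATatgctaagga
SRSF3 (chr6:36603562-36603588, plus strand): ctaaacaaatTATTTATttccaccttt
SRSF7 (chr2:38743675-38743701, minus strand): ctggcaggctTATTTATctgttgcact
SRSF11 (chr1:70252020-70252046, plus strand): accgtatttgTATTTATttacgctact
SNRPF (chr12:95866293-95866319, plus strand): aaaggataatTATTTATatgctttaga
HNRNPLL (chr2:38563722-38563748, minus strand): ataacttgtaTATTTATtattttaatg
SNRPD1 held 3 such sites and SRSF11 held 2, while each of the others held 1. SRSF1, HNRNPA3 and HNRNPDL, whose falls were among the largest, held none in the annotated UTR of the principal transcript. A match says only that these letters are present.

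Promoters were taken from RefSeq (GRCh38.p14) as the 250 bases before the start, and 58 members had an entry, 54 of them tested. The E box CACGTG, a palindrome, was present in 6 of 54 members' promoters (11.1%) and in 9.95% of 5214 promoters of tested genes. CCAAT or its complement ATTGG was present in 24 (44.4%, against 37.1%), and CCGGAA or TTCCGG, the core bound by ETS factors, in 22 (40.7%, against 30.1%). TATAAA or TTTATA was present in 5 (9.26%, against 4.91%). Over all 27305 promoters in the table the shares were 6.49%, 33%, 14.8% and 11.1%. Among the 23 promoters of fallen members, CACGTG was in 4, the CCAAT box in 9 and the ETS core in 6, and among the 31 others in 2, 15 and 16. The promoter of PRPF38B is shown as the member with the largest fall whose window lies wholly outside the annotated gene, and it holds the CCAAT box in its complement form, in capitals.
PRPF38B (chr1:108692060-108692309, plus strand): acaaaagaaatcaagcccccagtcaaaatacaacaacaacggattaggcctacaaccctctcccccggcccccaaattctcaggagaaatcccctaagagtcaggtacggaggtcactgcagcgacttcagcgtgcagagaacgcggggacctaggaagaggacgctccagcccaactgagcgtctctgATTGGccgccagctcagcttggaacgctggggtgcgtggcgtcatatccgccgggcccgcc

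Other genes of the splicing pathway, 165 on 9 lists made from textbook roles, were examined beside the members. Of the 138 tested, 34 fell (24.6%) and 4 rose, with a median log2 change of -0.28, beside 19.7% fallen and 22.5% risen of all tested genes. After the GC correction 53 fell and 2 rose (median -0.25), beside 26.3% fallen and 17.8% risen of all tested genes (median -0.09). The fallen share before correction was nearer to the 19.7% of all tested genes than that of the members was. The difference between the lists was not tested. Near 19.7% stood the SR protein kinases (20%), SR-related proteins (22.2%) and LSM proteins (22.2%). So did the other U4, U5 and U6 proteins (16.7%), exon junction and export genes (22.7%) and other splicing regulators (17.2%). Higher were the PRP19 and catalytic step list (26.3%), the other U1, U2, U11 and U12 proteins (38.5%) and snRNP assembly and import (45.5%).

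Among the 5 SR protein kinases tested only SRPK1, which phosphorylates SR proteins, fell, from 4.25 ± 1.09 to 2.32 ± 0.279 FPKM (log2 change -0.73 ± 0.17, adjusted p = 0.00863). Of 18 SR-related proteins 4 fell and 1 rose: PNN (-0.99), BCLAF1 (-0.87) and SREK1 (-0.80) had the largest falls, and SCAF1 (0.55) rose. The SCAF1 value turned to -0.25 with the GC correction. Of 9 LSM proteins, LSM5 (-0.77) and LSM11 (-0.40) fell and LSM10 (0.55) rose, the last with 0.10 after correction.

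Of 13 other U1, U2, U11 and U12 proteins 5 fell and 0 rose, led by HTATSF1 (-0.84), SNRNP48 (-0.77) of the minor spliceosome and DDX46 (-0.62), a helicase of the U2 snRNP. Of 12 further proteins of the U4, U5 and U6 snRNPs, PPIH (-0.43) and SART3 (-0.42), which recycles U4 and U6, fell. The list of PRP19 complex and catalytic step genes had 5 of 19 fallen, led by CWC22 (-0.66), CDC5L (-0.61) and SNW1 (-0.54), and 2 risen, XAB2 (0.58) and DHX16 (0.40). After correction XAB2 and DHX16 were at 0.01 and 0.07, not called.

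Of 22 exon junction complex and mRNA export genes 5 fell and 0 rose, with UPF3B (-0.73), THOC1 (-0.69) and MAGOHB (-0.66) the lowest. Other splicing regulators had 5 of 29 fallen (17.2%, below the 19.7% of all tested genes) and 0 risen. The largest falls there were of SYNCRIP (-0.98), an hnRNP-like protein, TARDBP (-0.75), the TDP-43 gene, and SFPQ (-0.65). Of 11 snRNP assembly and import genes 5 fell and 0 rose. They were led by TGS1 (-0.89), which trimethylates the cap of snRNAs, DDX20 (-0.72) and GEMIN5 (-0.69), both of the SMN complex that loads Sm rings. GEMIN5 had 2.24, 2.65 and 2.08 FPKM in the sgRosa libraries, 1.12 and 1.03 with guide 3 and 1.31 and 1.56 with guide 5. Its groups did not overlap (adjusted p = 0.00295, and 0.000791 after the GC correction).

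Of the 23 fallen genes of the pathway lists named here, 17 were still called after the GC correction. The 6 that were not were SREK1 (adjusted p = 0.0758), LSM5 (0.132), LSM11 (0.239), CWC22 (0.0547), UPF3B (0.0568) and MAGOHB (0.110). Without sgRosa replicate 2 all 6 changes were again below 0. They were smaller for SREK1 (-0.48), CWC22 (-0.41), UPF3B (-0.42) and MAGOHB (-0.58), and larger for LSM5 (-0.86) and LSM11 (-0.44). Of the genes still called after the GC correction, PNN (-0.63), SNW1 (-0.33) and SFPQ (-0.41) had smaller changes without that library.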

How the data were processed

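Poly(A) RNA of 7 MOLM13 libraries was sequenced from directional libraries, per the labels' protocols. STAR 2.5.3, HTSeq, edgeR and limma with GRCh38.p7 and hg38 stand in the submitters' processing notes, without roles. How strand was handled in counting is not given in the sources used here. The authors' deposited FPKM are per kilobase of whole gene, introns included: recovered lengths were whole for 100% of genes within 0.01 bases and equal the GENCODE 29 span for 8064 of 11408 genes. The authors' deposited table of differences holds log2 fold changes, p-values and false discovery rates from edgeR, and group mean CPM, kept as a score because their sums exceed what CPM allows. The labels number the guides in another way than the deposited columns, and nothing pairs them, so the column names are used.

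The 6783 genes reaching 1 FPKM in 2 or more libraries were fitted as log2(FPKM + 0.5), a pseudocount that understates changes of low genes, with limma 3.58.1 in R 4.3.3: 3 group means, moderated variances with trend, 4 residual and 6.21 prior degrees of freedom, two-sided, Benjamini-Hochberg over all tested genes, threshold 0.05. The procedure was tested on simulated data. Whole reads recovered from FPKM were tested with limma's voom, chosen after seeing the data. The GC correction subtracts from each library a loess trend (span 0.5) over transcript GC content and length. Alternatives were other pseudocounts, filters and scalings, the GC correction, the replicate number as a block, and each library left out. Leaving out sgRosa replicate 2 together with the GC correction is reported apart and not counted among them.

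Members and lists were chosen with earlier results of these data known. Named with all library values are, in each role group, the 2 highest and 2 lowest log2 changes, plus SF3B1, SRSF2, HNRNPA1, HNRNPA2B1 and SRSF3. From each pathway list up to 3 called genes in each direction are named. SF3B5, GEMIN5 and the promoter shown were chosen after their values were seen. One member enters every count, but its own values are not reported here. On the same strand, other protein-coding entries overlap HNRNPH2 (RPL36A-HNRNPH2), HNRNPUL2 (HNRNPUL2-BSCL2), SNRPN (SNURF and AC124312.1), SNRPD3 (GGT1), SRSF1 (AC015813.2), U2AF1L4 (AD000671.2), SNRPB (AL049650.1), HNRNPL (AC008982.1) and PRPF18 (AL157392.5), and AC078778.2 overlaps HNRNPA1, so those counts are uncertain. Transcript lengths above the authors' gene length were set to it. Reads carry no molecular identifiers. Tables and figures were made with pandas 2.3.3 and matplotlib 3.10.9.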

Additional observations from a re-analysis of the deposited data

Results flagged for a closer look

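In 2 of the 62 tested members, 1 of the 4 guide libraries lay far from the other 3, by the gap to the nearest library divided by the range of the group, and chance alone marks about 1 in 20 groups. For U2AF1L4 this value was 0.985, since guide 3 replicate 1 had 1.70 FPKM and the other guide libraries 2.49 to 2.51. For HNRNPUL1 it was 0.87, with 16.9 FPKM in guide 3 replicate 1 and 19.9 to 20.4 in the others.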

How the results depend on the processing

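With both guides, 28 members fell; the count was 43 with a common sum of FPKM (35% of all tested genes fell, and their median moved to -0.17), 37 with quantile normalization (28.5%) and 9 to 31 with each library left out. Leaving out sgRosa replicate 2 together with the GC correction, chosen after the data were seen, gave 45 fallen and 3 risen (HNRNPLL, HNRNPC and U2AF1L4), beside 37% of all tested genes fallen and 23.5% risen. Risen members numbered 1 with the GC correction (HNRNPLL) and with median of ratios scaling (U2AF1L4), and 0 to 3 with libraries left out. With guide 3, 23 fell; the count was 41 with a common sum (37.7% of all tested genes), 37 with quantile normalization (26.9%) and 0 to 28 with libraries left out, and 1 rose with the GC correction and 0 to 2 with libraries left out. With guide 5, 10 fell; the count was 23 with the GC correction (17.8% of all tested genes), 24 with a common sum (14.7%), 22 with quantile normalization (15.2%) and 0 to 22 with libraries left out, and 1 rose with the GC correction and 0 to 1 with libraries left out. With 1 sgRosa library left out, 13.4% to 25.2% of all tested genes fell and 15.3% to 27.1% rose with both guides. With guide 3 these shares were 11.8% to 23.2% and 17.1% to 29.3%, and with guide 5 2.62% to 14.7% and 8.23% to 18.3%. Fallen shares with a guide library left out are given above. With the GC correction 17.8%, 16.1% and 14.3% of all tested genes rose with both guides, guide 3 and guide 5. The cause of the shifts in the counts was not tested, except that leaving out a guide library leaves 1 library for that guide, which is assumed to vary like the other groups. The planned edgeR and DESeq2 tests were not run, because the deposited values are FPKM, and limma with voom on recovered reads, added after the data were seen, called 31, 24 and 15 members fallen with both guides, guide 3 and guide 5, beside 21.2%, 19% and 9.13% of all tested genes. Other pseudocounts, the other filter settings and median of ratios scaling kept the fallen counts within 1.5 times.

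The replicate numbers are only numbers: same-numbered libraries deviated together with a correlation of -0.23 between sgRosa and guide 3, 0.25 between sgRosa and guide 5 and -0.57 between the guides. With the replicate block, which takes sgRosa replicate 3 out of the comparison since no guide library shares its number, 32 members fell and 1 rose with both guides, 27 fell and 2 rose with guide 3, and 26 fell and 1 rose with guide 5, beside 24.6%, 23% and 15.6% of all tested genes that fell and 25.4%, 27.2% and 16.8% that rose. Of 1485 values of 89 named genes under the alternatives, 1227 kept their direction and side of the threshold, 158 no longer passed, 60 newly passed and 40 changed sign, none of them among the fallen members. With the GC correction the sign turned for HNRNPL (-0.065), HNRNPUL1 (-0.11), PRPF19 (-0.27), SF3A2 (-0.33), SNRPB (-0.22), SNRPG (0.057), SRSF9 (-0.030), U2AF2 (-0.24), HNRNPC (0.16) and SCAF1 (-0.25). A common sum turned PRPF19 (-0.11), SRSF9 (-0.054), HNRNPLL (-0.067) and HNRNPA0 (-0.0032), quantile normalization PRPF19 (-0.054), median of ratios PRPF31 (0.031), SNRPA (0.023), SF3B5 (0.055) and HNRNPC (0.018), and the block SNRPA (0.013), SF3B5 (0.085) and HNRNPLL (-0.015). With libraries left out, values of both signs arose for PRPF19 (-0.092 to 0.18), PRPF31 (-0.15 to 0.086), SF3B4 (-0.048 to 0.60), SNRPA (-0.16 to 0.055), SRSF5 (-0.29 to 0.12), SF3B5 (-0.13 to 0.12), HNRNPC (-0.24 to 0.22), HNRNPA0 (-0.019 to 0.32) and HNRNPLL (-0.015 to 0.16). Of the 4 members below the filter, PRPF40B (27 to 113 reads) and HNRNPA1L2 (48 to 91) had few reads, while PRPF18 (236 to 374) and SNRPN (276 to 1332) fell short on a scale that divides by gene spans of 43941 and 155076 bases.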
